A study of Oryza sativa with 72 samples.

Results

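Among the 55986 rows of a rice leaf count table, 63 were low in leaves of drought-stressed plants 2 h after watering resumed, while treated and irrigated plants lay close together at the drought and recovery stages on either side. The plants were IR64, a widely grown indica rice cultivar, raised singly in pots in a growth chamber. From 14 days after sowing, treated plants stood in raised pots that drained quickly, a severe drought of 9 days, and watering then resumed for 6 days. Controls were irrigated throughout. Polyadenylated RNA was sequenced from the latest fully expanded leaf and the second latest leaf of treated and control plants at drought Day 0, Day 6 and Day 9, at 2 h after rewatering, and at rehydration Day 3 and Day 6. This gave 24 groups of 3 libraries, 72 in all. The title of the series speaks of biomarker genes that predict how drought stress is perceived.

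The 63 rows were picked by their own values. Counts were scaled to a common library total (CPM), and the response of a row was the mean log2(CPM + 1) of the treated libraries minus that of the controls, for each leaf and stage. On this scale the change of a row with few counts is understated. Of the rows, 15485 had a mean of at least 5 CPM in some group. A row was kept if its response at 2 h was -0.8 or lower in both leaves and if the response stayed within 0.6 of 0 in both leaves at drought Day 6, drought Day 9 and rehydration Day 3. The 2 h limit alone was met by 271 rows, and 208 of these fell outside the limits at another stage. Low responses were most frequent on Day 9, where 135 of the 208 had a response of -0.6 or lower in a leaf, against 96 at Day 6 and 30 at rehydration Day 3, with some rows counted more than once. Rows outside the limits through a high response were not counted by stage. A ceiling of 200 rows was not reached. Responses at these 4 stages are therefore given as a description, without a test.

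Each row is known only by its place in the table, since 0 rows carry an identifier, and a row is called here by its line number after the header. Gene names, roles, pathway lists, marker genes of leaf tissue and sequences were therefore not used here. As general background, leaves short of water close their stomata, accumulate the hormone abscisic acid and osmoprotectants, and lower transcripts of growth and photosynthesis. Rewatering restores turgor within hours, and transcripts can pass through a short-lived state that belongs neither to drought nor to the watered condition. Many leaf transcripts also follow the time of day. The clock time of sampling was not stated in the labels.

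Usable libraries held 6370914 to 24192248 counts, with a median of 13764577, and the 12 libraries of 2 h held 6370914 to 23026735. A near-empty latest-leaf library with 1755 counts, replicate 2 of the treated group of Day 9, was dropped, so that group has n = 2. Whether replicates are different plants is not stated in the labels, and p-values measure only the spread among the libraries, and part of that may be technical. In bulk leaf RNA, fewer cells of a type and less RNA per cell cannot be told apart.

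At 2 h the median response of the 63 rows was -0.99 in the latest leaf and -1.09 in the second latest leaf, against 0.02 and -0.06 over all 15485 rows. With TMM scaling, described below, these medians of the 63 rows were -1.01 and -1.03, closer between the leaves. By the column totals of the selection, the response was the lower one in the second latest leaf for 44 rows and in the latest leaf for 19. A difference between leaves at 2 h was not tested. The leaves lay within 0.25 of each other for 45 rows and more than 0.5 apart for 3, rows 9639, 19018 and 5617, which were singled out after their values were seen. A response of -1 or lower in both leaves was found in 26 rows, and of -1.5 or lower in both leaves in 2. Around 2 h the medians were near 0: at drought Day 6 they were 0.08 and 0.11, at Day 9 -0.03 and -0.15, and at rehydration Day 3 -0.01 and 0.05, with the latest leaf first in each case. The Day 9 value depended on the scaling: with TMM, which equalises libraries on the bulk of their rows, the medians of the 63 rows at Day 9 were -0.30 and -0.21, with 51 and 48 of the 63 below 0, while column totals placed the median of all rows at 0.27 and 0.08. Of the 63 rows, 9 stayed within 0.3 of 0 at all 3 of these stages in both leaves, and the median row had a largest response of 0.413 in size there.

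**Figure D1:**
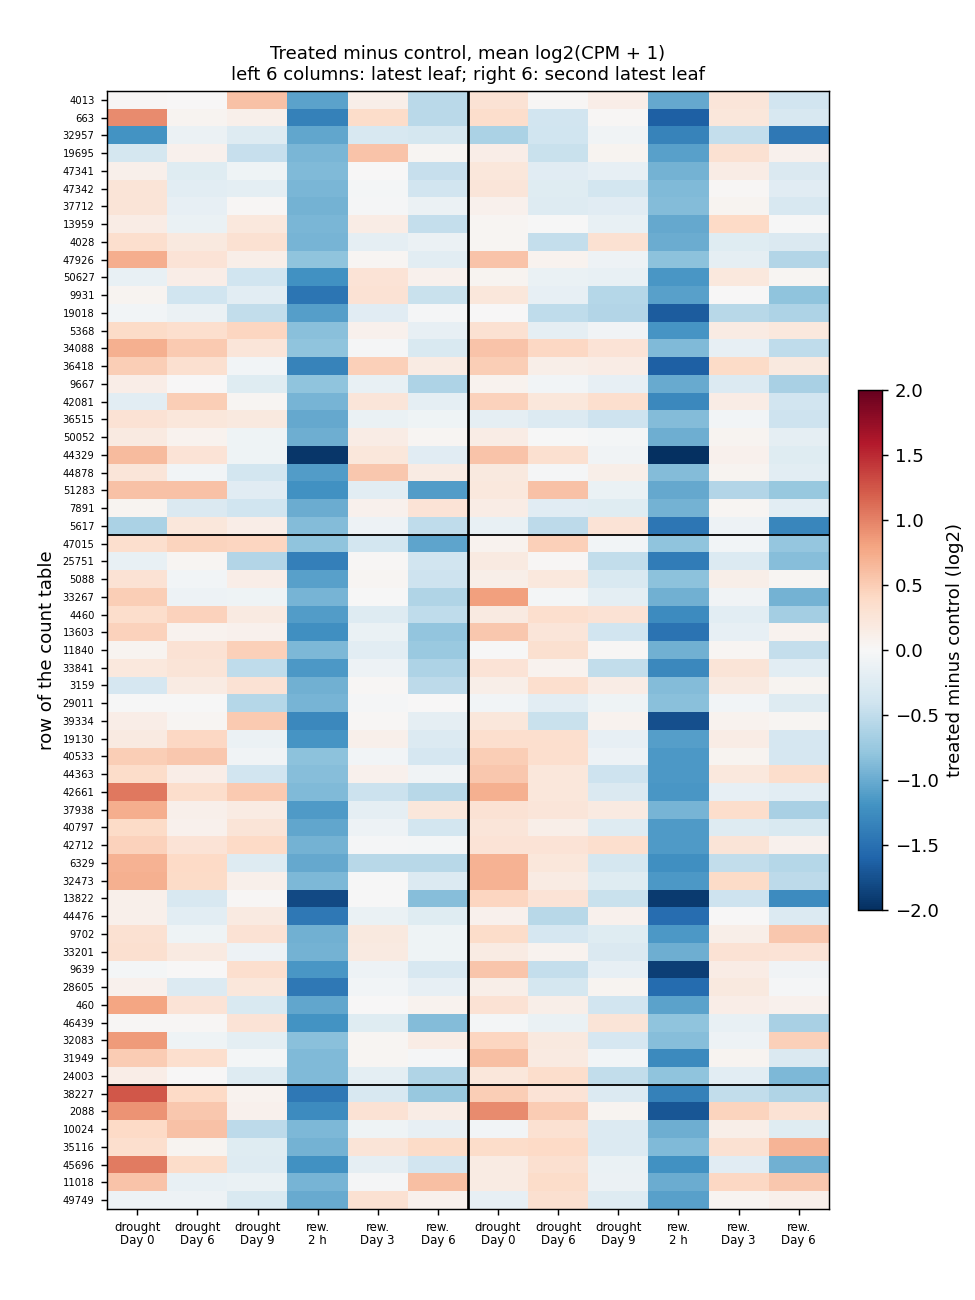
Each line is 1 of the 63 rows and each column a stage, with the latest leaf in the left 6 columns and the second latest leaf in the right 6, and colour gives treated minus control mean log2(CPM + 1), from blue at -2 or lower to red. Lines divide rows whose controls were higher at 2 h than at Day 9 (top, 25 rows), within 0.5 (middle, 31) and lower (bottom, 7), and the 2 h column of each leaf is blue in all 63 rows because the selection required it.

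Every treated library was below every control library at 2 h for 60 of the 63 rows in the latest leaf, where 12.8% of the 15485 rows did so, and for 61 in the second latest leaf, where 22.6% did. Both leaves showed this separation in 58 rows, against 8.98% of all rows. The exceptions, named after their values were seen, were rows 9639, 42661 and 47015 in the latest leaf and rows 6329 and 19695 in the second latest. The selection used the same libraries, so nothing further is read from these counts. Within the 2 h groups the libraries were not level. Treated replicate 3 of the latest leaf was the highest treated library in 41 of the 63 rows and treated replicate 2 the lowest in 40. Control replicate 1 was the lowest control in 40 rows of the latest leaf and in 44 of the second latest leaf. Their part in the response was not tested.

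The 63 rows took 0.677% ± 0.112 of the counts in treated latest leaves at 2 h and 1.35% ± 0.0826 in controls (SD, n = 3 each). Their share of treated second latest leaves was 0.625% ± 0.0479 and that of the control leaves 1.37% ± 0.0585 (SD, n = 3 each). In the other 20 groups the mean share lay between 1.07% and 1.51%. The treated share at 2 h was the lowest of any group in both leaves, and the treated and control libraries of that stage did not overlap in it. The selection used these libraries and required each row to be low there, so nothing further is read from this order. Row 42712 alone averaged 5151 CPM in the 2 h controls of both leaves. Without it the mean shares at 2 h were 0.411% in treated and 0.847% in control latest leaves. In second latest leaves they were 0.385% and 0.845%.

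**Figure D2:**
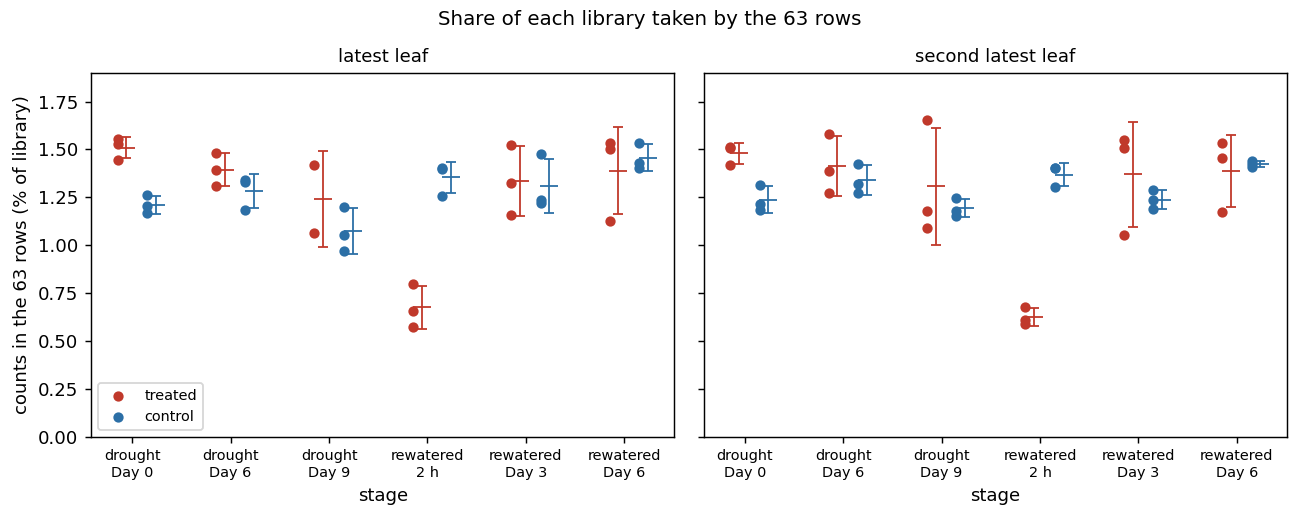
Points give the percentage of each usable library's counts that fell in the 63 rows, by stage, with treated plants in red left of irrigated controls in blue, and bars give the mean and SD of each group. The treated libraries at 2 h, with means of 0.677% and 0.625%, lie below all other libraries, and the selection used these libraries.

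Row 44329 had the lowest response of the set. In the latest leaf at 2 h it had 21.3, 25.2 and 40.2 CPM in treated plants and 91.6, 122 and 121 CPM in controls, a response of -1.95. In the second latest leaf it had 20.7, 19.9 and 28.2 CPM in treated plants and 72.6, 97.5 and 131 CPM in controls, a response of -2.06. All treated libraries were below all controls in both leaves. On drought Day 9 the same row had 55 and 91.9 CPM in treated latest leaves and 57.8, 84.5 and 88.7 CPM in controls, and the groups overlapped. On rehydration Day 3 it had 140.3, 78.7 and 95.4 CPM in treated latest leaves and 72.6, 81.1 and 113 CPM in controls, again overlapping. Small mean responses on Day 9 and Day 3 were required by the selection, so the contrast with 2 h is only a description.

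Row 13822 was a row of few counts. It had 2.49, 1.25 and 2.59 CPM in treated latest leaves at 2 h and 7.43, 7.06 and 16.9 CPM in controls. The second latest leaf had 1.23, 1.43 and 2.86 CPM in treated plants and 6.56, 7.82 and 15.6 CPM in controls. All treated libraries were below all controls in both leaves, and control replicate 3 was the highest library in each.

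Row 28605 had 82.6, 80.1 and 138 CPM in treated latest leaves at 2 h and 287, 245 and 257 CPM in controls. On rehydration Day 3 it had 258, 358 and 262 CPM in treated latest leaves and 308, 288 and 304 CPM in controls. The treated group of Day 3 overlapped its controls, whereas that of 2 h did not. The selection required a low mean response at 2 h and a small one on Day 3. It therefore favours this contrast, and nothing further is read from it. Row 44476 had 35.2, 43.2 and 66.7 CPM in treated latest leaves at 2 h and 138, 125 and 119 CPM in controls, and row 25751 had 7.48, 4.8 and 11.5 CPM in treated and 16.9, 22.9 and 23.5 CPM in control latest leaves. Row 36418 had 21.7, 33.7 and 55.6 CPM in treated and 88.7, 78.8 and 99.7 CPM in control latest leaves.

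The 5 rows with the highest CPM in the 2 h controls showed the same separation. Row 42712 had 2605, 2242 and 3127 CPM in treated latest leaves at 2 h and 4613, 5565 and 5019.5 CPM in controls. Row 7891 had 669, 577 and 785 CPM in treated and 1438, 1399.8 and 1184 CPM in control latest leaves. Row 39334 had 327, 298 and 556 CPM in treated latest leaves and 894, 871 and 1008 CPM in controls. In each of these rows the highest treated library was below the lowest control.

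Row 39334 had the reverse order on drought Day 9 in the latest leaf, with 1014 and 1137 CPM in treated plants and 841, 765 and 638 CPM in controls. Second latest leaves of that day had 1227, 973 and 1081 CPM in treated plants and 1108, 877 and 1144 CPM in controls, which overlapped. With TMM scaling the Day 9 response of this row was 0.26 in the latest leaf and 0.01 in the second latest. Its second latest leaves at 2 h had 321, 304 and 362 CPM in treated plants and 1023, 1140.4 and 1176 CPM in controls, far from overlapping. Row 50627 had 333, 293 and 505 CPM in treated latest leaves at 2 h and 968, 747 and 848 CPM in controls. Row 34088 had 439, 312 and 408 CPM in treated and 553, 724 and 740.1 CPM in control latest leaves. CPM is not divided by transcript length, so levels of different rows are not compared. In the 2 h controls, 13 of the 63 rows averaged under 10 CPM, 30 lay between 10 and 100, 17 between 100 and 1000, and 3 reached 1000 or more.

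The limits of the selection cut through a continuum. The members just inside the 2 h limit were rows 34088 (-0.80 in the latest leaf and -0.88 in the second latest), 47015 (-0.81 and -0.80) and 47926 (-0.80 and -0.82). The rows just outside it were 46612 (-0.80, short of the limit before rounding, and -1.09), 35212 (-0.80, likewise, and -0.98) and 12987 (-0.90 and -0.79). At the other stages, members 19018, 51283 and 10024 came nearest to the limit of 0.6, with 0.592, 0.590 and 0.587 as their largest response in size, and rows 9212, 12169 and 33906 missed it with 0.602, 0.602 and 0.607.

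A difference between treated and control leaves can come from either side, so the 2 groups were followed separately, as a description. Relative to treated leaves of drought Day 6, all 63 rows were lower in treated leaves at 2 h, with a median change of -1.08 in the latest leaf and -1.14 in the second latest, whereas the median change of the controls was 0.09 in each. Over all 15485 rows, 63.1% and 64.8% were lower in this comparison of treated leaves, with medians of -0.13 and -0.17. Relative to treated leaves of rehydration Day 3, all 63 rows were again lower at 2 h, by a median of -0.89 and -0.94, and the controls differed by 0.15 and 0.16. Of all rows 37.9% and 49.9% were lower here in treated leaves, with medians of 0.10 and 0.00. The limits of the selection partly force these signs. Across the 6 stages, 2 h was the lowest treated stage for 53 rows in each leaf and for 52 in both, and without Day 9 it was the lowest for 61 in both leaves. Irrigated controls had their highest stage at 2 h for 9 and 8 rows. No value over all rows is set beside these stage counts.

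Against drought Day 9 the picture was mixed. Treated leaves at 2 h were lower than treated leaves of Day 9 in 53 rows of the latest leaf and 54 of the second latest, with medians of -0.66 and -0.77. Controls at 2 h were higher than controls of Day 9 in 48 and 42 rows, with medians of 0.33 and 0.24. Over all 15485 rows the controls differed in the same direction by 0.31 and 0.19, and the treated leaves by 0.09 in each leaf. With TMM scaling the medians for the 63 rows were -0.75 and -0.85 in treated leaves and 0.00 and 0.03 in controls.

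Sorted by the change of the controls between Day 9 and 2 h, averaged over the leaves, 31 rows had controls within 0.5, and all 31 were lower in treated leaves at 2 h than on Day 9, by -1.73 to -0.33 with a median of -0.90. In 25 rows the controls were higher at 2 h by 0.5 or more, with a median of 0.75, while treated leaves had a median change of -0.10 and were lower in 16 of the 25. In 7 rows the controls were lower at 2 h by 0.5 or more, with a median of -1.58, and treated leaves had a median change of -2.35. The selection requires the treated change to lie below that of the controls in every row. That order is therefore not a result, and the signs in the 31 rows are partly forced. This sorting depends on the scaling: with TMM the same classes held 42, 13 and 8 rows.

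**Figure D3:**
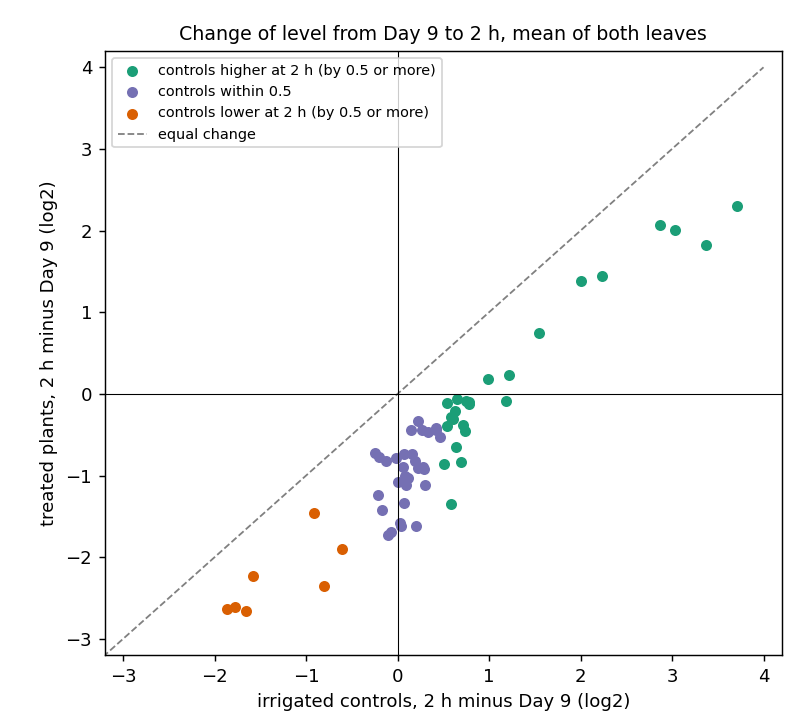
Each point is 1 of the 63 rows, with the change of its mean log2(CPM + 1) between Day 9 and 2 h in irrigated controls across and in treated plants upward, both averaged over the leaves, and the dashed line marks equal change. All rows lie below the line, as the selection requires, and the 31 rows with controls within 0.5 all lie below 0 on the upward axis.

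Row 663 stood in the class with higher controls. On Day 9 it had 2.21 and 3.93 CPM in treated latest leaves and 2.47, 2.51 and 3.18 CPM in controls. At 2 h it had 12.1, 13.5 and 22.9 CPM in treated latest leaves and 31.7, 34.1 and 64.3 CPM in controls. Both groups were thus above their Day 9 level at 2 h, the treated one by less. On rehydration Day 3 the row had 73.9, 36.2 and 48.6 CPM in treated latest leaves and 23.9, 38.3 and 64.3 CPM in controls, with overlapping groups.

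In 9 rows the level of treated leaves, averaged over both leaf positions, was higher at 2 h than on Day 9. These were rows 663, 32957, 4013, 19695, 13959, 47342, 47341, 37712 and 47926, and all but 663, 37712 and 47926 are named after their values were seen. Row 4013 averaged 18.1 ± 4.71 CPM in treated latest leaves at 2 h and 38.8 ± 8.77 CPM in controls (SD, n = 3 each). On Day 9 it averaged 3.68 ± 3.17 CPM in treated latest leaves (SD, n = 2) and 2.02 ± 1.66 CPM in controls (SD, n = 3). Rows 47341 and 47342 are adjacent lines. Reads shared between overlapping or near-identical genes cannot be told apart in such counts, so these may not be separate observations.

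Rows 2088 and 38227 stood in the class with lower controls. Row 2088 had 31.4 and 38.1 CPM in treated latest leaves on Day 9 and 38.6, 35.2 and 25.4 CPM in controls. At 2 h it had 5.76, 5.86 and 7.89 CPM in treated latest leaves and 14.8, 16.2 and 19.9 CPM in controls. Row 38227 had 2.43, 2.99 and 4.44 CPM in treated latest leaves at 2 h and 5.7, 11.1 and 16.8 CPM in controls. Both groups of row 2088 were below their Day 9 level, the treated one by more.

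**Figure D4:**
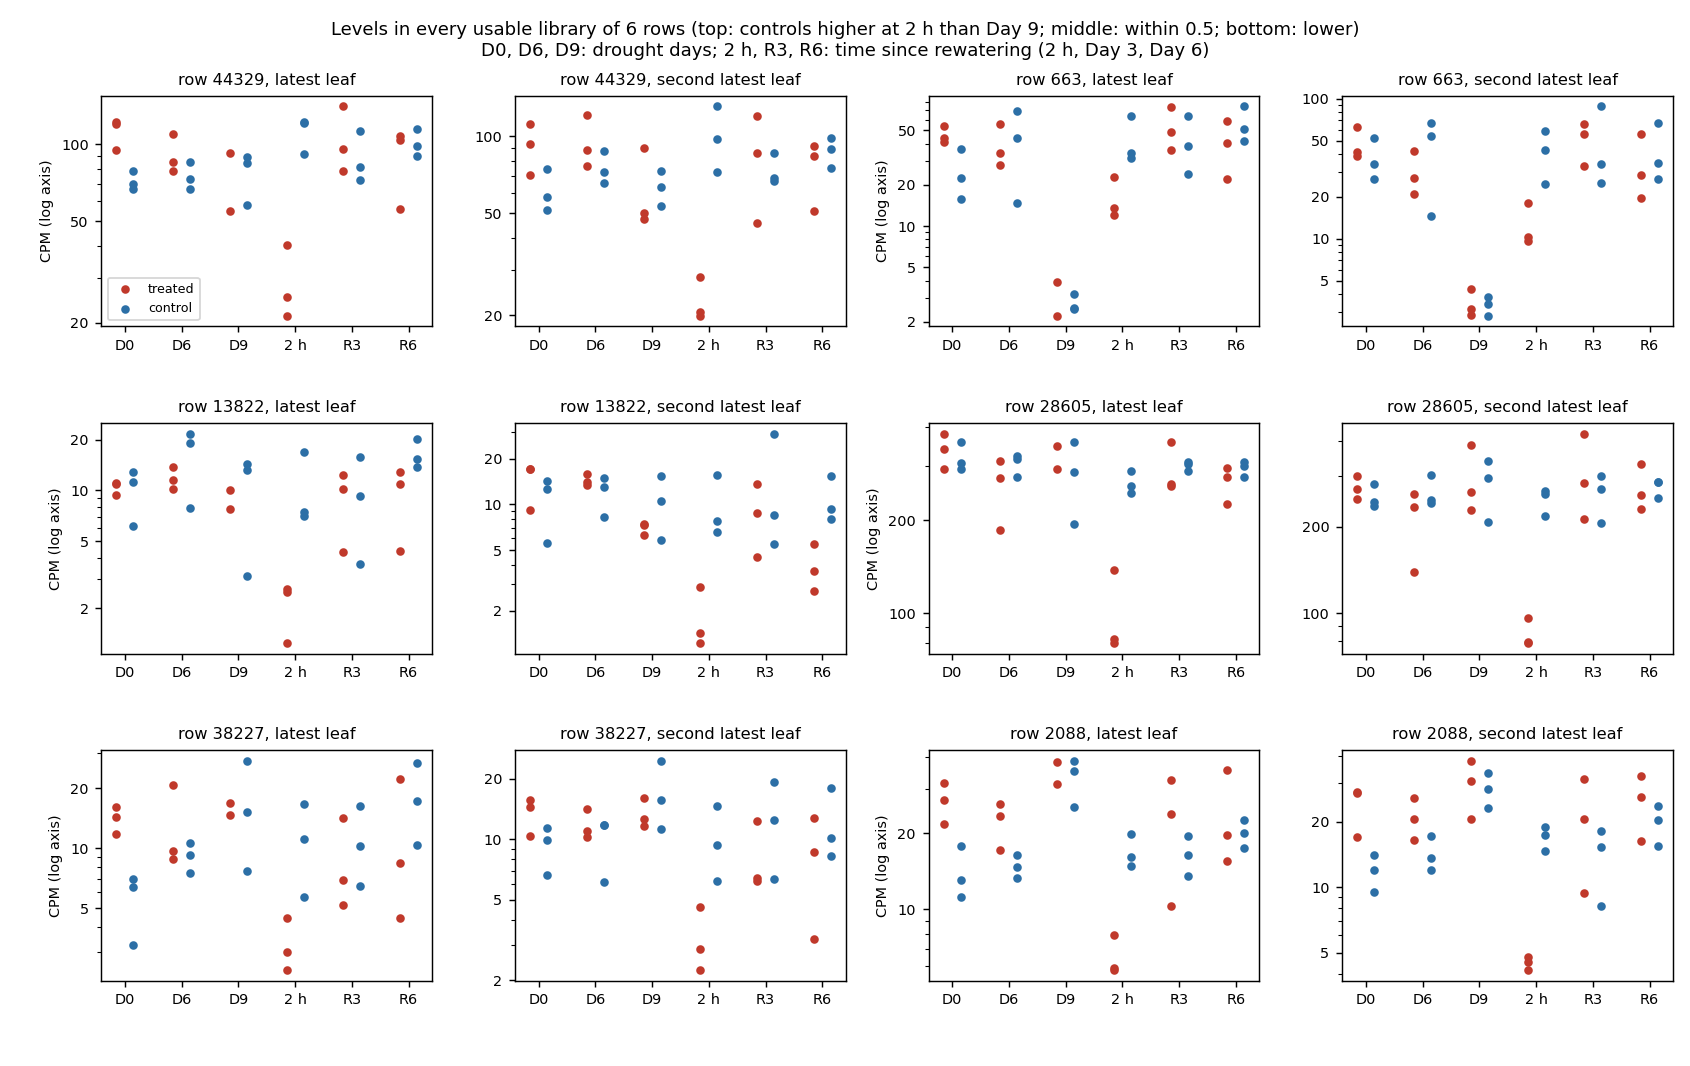
Points give CPM on a log axis in every usable library for 6 of the named rows, with treated plants in red left of irrigated controls in blue at each stage and a panel for each leaf. The treated libraries at 2 h lie below their controls in each of the 6 rows, for example at 21.3 to 40.2 CPM against 91.6 to 122 CPM for row 44329 in the latest leaf, while Day 9 levels differ between the 3 classes.

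Drought Day 0 and rehydration Day 6 played no part in the selection, and there the rows could be tested. All 63 passed the filter on low counts. On Day 0, labelled as 0 days of treatment, 2 of the 63 were called higher in plants assigned to treatment than in controls in the latest leaf (edgeR quasi-likelihood test, Benjamini-Hochberg adjusted p under 0.05), where 0.637% of all 21037 rows tested were called, and 0.266% higher. None was called in the second latest leaf, where 0% of 20950 rows were called. There 14 of the 63 were higher and 1 lower at an unadjusted p under 0.05, and DESeq2 called 0 of the 63. For the latest leaf 15 were higher and 2 lower at that limit. Over all rows, with both directions together, 2192 passed it in the second latest leaf and 3253 in the latest. The median fitted log2 fold change of the 63 rows was 0.20 in the latest leaf and 0.18 in the second latest, against 0.00 and -0.02 over all rows. Together the 63 rows took 1.51% ± 0.0562 of the counts in treated latest leaves of Day 0 and 1.21% ± 0.0472 in controls (SD, n = 3 each). For second latest leaves the shares were 1.48% ± 0.0536 in treated plants, against 1.24% ± 0.0695 in the controls (SD, n = 3 each). The treated plants thus had the larger share at the start of the treatment, the opposite order to 2 h, and no test was run on this sum.

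Row 32083 had 127, 132 and 193 CPM in treated latest leaves on Day 0 and 81.8, 83.5 and 79.3 CPM in controls, without overlap. Its log2 fold change was 0.78 (SE 0.154, edgeR adjusted p = 0.0199). The call was lost without any 1 of the 3 control libraries or without treated replicate 3, with adjusted p up to 0.169. Row 460 had 12.8, 12.6 and 11.3 CPM in treated latest leaves and 6.5, 7.08 and 6.46 CPM in controls, also without overlap. Its log2 fold change was 0.77 (SE 0.186, edgeR adjusted p = 0.0491), and the call was lost without any 1 of the 6 libraries, with adjusted p between 0.0924 and 0.183. The calls over all rows also fell without 1 library, from 134 to between 13 and 77. A lost call therefore need not mark dependence on that library. In 6 other settings, such as DESeq2 or no filter on low counts, row 32083 was called in 6 and row 460 in 5.

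On rehydration Day 6 none of the 63 rows was called in the latest leaf (edgeR), where 0% of the rows tested were called. At an unadjusted p under 0.05, 4 of the 63 were higher and 5 lower, 2723 of all rows passed that limit, and DESeq2 called 2 of the 63 and 222 of 21037 rows. Without treated replicate 2 edgeR called 2 of the 63, 1 higher and 1 lower, and 1006 of 21011 rows. Among second latest leaves 1 of the 63 was called, lower in treated plants, where 0.263% of all rows were called and 0.143% lower. At an unadjusted p under 0.05, 8 of the 63 were higher and 9 lower there, and 3422 of 20950 rows passed that limit. The median fitted log2 fold change was 0.04 in the latest leaf and -0.07 in the second latest, against -0.01 over all rows in each.

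The row called was 5617, with 3.45, 7.35 and 3.8 CPM in treated second latest leaves on Day 6 of rehydration and 11.9, 13.8 and 12.9 CPM in controls. Its log2 fold change was -1.21 (SE 0.239, edgeR adjusted p = 0.0333), and the groups did not overlap. Without treated replicate 2 the count among the 63 was 3, with 279 of 21313 rows called in all, and without any 1 of the other 5 libraries it was 0, with adjusted p of row 5617 up to 0.188. In those 5 fits the calls over all rows fell from 55 to between 0 and 10. Row 5617 was called in 4 of 5 other settings. In the latest leaf the same row had 4.27, 6.15 and 5.87 CPM in treated plants and 7.63, 6.25 and 10.8 CPM in controls.

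A difference of the response between leaves was tested as an interaction (edgeR). On Day 0 it was called in 0 of the 63 rows, where 0% of 21824 rows were called, and on rehydration Day 6 in 0, where 0.00458% were. On Day 0, 1 of the 63 was lower at an unadjusted p under 0.05, and on rehydration Day 6, 3 were higher and 2 lower, while 505 and 1402 of the 21824 rows passed that limit. DESeq2 called 0 at each stage. A missed threshold does not show that the leaves respond alike.

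**Figure D5:**
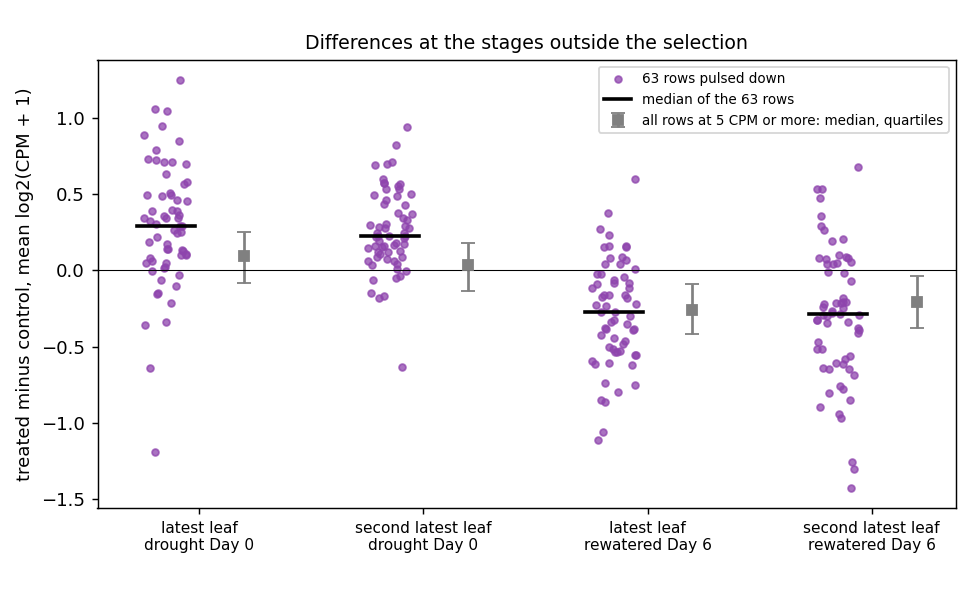
Purple points give the response of each of the 63 rows, treated minus control mean log2(CPM + 1), on drought Day 0 and rehydration Day 6 in each leaf, with black bars at their medians, and grey squares with bars give the median and quartiles of all 15485 rows. The medians of the 63 rows on Day 0 are 0.29 and 0.22 against 0.09 and 0.04 over all rows, and on rehydration Day 6 they are -0.27 and -0.29 against -0.26 and -0.21, values that move to -0.02 and -0.05 for the 63 rows with TMM scaling.

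In irrigated controls, the median log2 fold change of the 63 rows, latest over second latest leaf, was 0.13 on Day 0 with 43 rows positive, and 0.19 on rehydration Day 6 with 46 positive. Over all rows the medians were 0.00 at both stages. None was called at either stage (edgeR), where 1.09% and 0.298% of 21824 rows were called. At an unadjusted p under 0.05, 11 of the 63 were higher and 2 lower on Day 0, and 12 and 1 on rehydration Day 6. That limit was passed by 3556 and 2452 of the 21824 rows, both directions together. DESeq2 called 0 of the 63 at each stage. Same-numbered leaves deviated together, and with the replicate number as a block 11 of the 63 were called on Day 0, where 9.04% of all rows were called. Of these 9 were higher in the latest leaf, where 4.95% of all rows were, and 2 lower, where 4.09% were. On rehydration Day 6 the block gave 9 called, all higher in the latest leaf, where 4.15% of all rows were called and 2.78% higher. Rows 44363 and 32083, singled out after their values were seen, were called at both stages, with log2 fold changes of 0.48 and 0.40 for row 44363 and of 0.51 and 0.47 for row 32083, Day 0 first. These shares were not matched for level. In Day 0 controls the 63 rows had a median of 39.4 CPM, against 19.1 over the 15485 rows, and 27.0% against 10.3% reached 100 CPM. The 21824 rows tested also include rows under 5 CPM in every group. A leaf preference of the 63 rows as a set was not tested.

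Plants that were never stressed were compared between the last and the first stage. In latest-leaf controls, rehydration Day 6 over drought Day 0, 1 of the 63 was called higher (edgeR), where 4.10% of all rows were called and 1.91% higher. Controls of the second latest leaf had 1 called higher and 1 lower, where 3.00% of all rows were called, 1.33% higher and 1.68% lower. Row 4460 had 25.3, 23.7 and 33.4 CPM in latest-leaf controls of rehydration Day 6 and 10.8, 17 and 13.8 CPM in those of Day 0, a log2 fold change of 0.70 (SE 0.163, edgeR adjusted p = 0.0245). Its log2 fold change in the second latest leaf was 0.75 (SE 0.181, edgeR adjusted p = 0.0235). Row 37712 was lower in the second latest leaf, with 467, 484 and 578 CPM on rehydration Day 6 and 639.7, 813 and 726 CPM on Day 0, a log2 fold change of -0.70 (SE 0.178, edgeR adjusted p = 0.0302).

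These calls were also lost on leaving out single libraries, but the counts called over all rows fell as well. They fell from 863 to between 36 and 439 in the latest leaf, and from 629 to between 52 and 270 in the second latest. A lost call therefore need not mark dependence on that library. Row 4460 was not called in the latest leaf without control replicate 1 or 3 of Day 0 or control replicate 3 of rehydration Day 6, with adjusted p up to 0.149. It was not called in the second latest leaf without any 1 of the 6 libraries, with adjusted p between 0.0510 and 0.140. Row 37712 kept its call only without control replicate 1 of Day 0, and without any 1 of the other 5 libraries its adjusted p reached up to 0.115.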

How the data were processed

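The authors deposited raw read counts, not normalised, for 72 libraries in 1 table without gene identifiers; 0 columns were left unmatched to a sample. The submitters' processing notes name STAR, featureCounts 2.0.0 and the build IRGSP-1.0. For the STAR version, annotation and strand setting, nothing was given in the sources used here. The library with a total under 2000 counts was dropped. Replicates of a group were never identical in their counts (0 of 70 pairs; chi-square per degree of freedom 6.12 to 162).

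The 63 rows, the tests and the sorting of rows were chosen with earlier results of these data known. CPM used column totals and a pseudocount of 1. Tests used edgeR 4.0.16 in R 4.3.3 (filterByExpr by group, TMM, glmQLFit, glmQLFTest, 1 mean per group) on all usable libraries of a leaf, or of both leaves for comparisons between leaves, with Benjamini-Hochberg adjustment over all rows tested. DESeq2 1.42.0 was an alternative. SE of a log2 fold change was its size divided by the square root of F. The fit was tested on simulated data.

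Named rows were the 10 with the lowest 2 h response (the higher of both leaves), the 5 with most CPM in 2 h controls, the 3 nearest inside and outside each limit, and up to 5 called per test. A rule naming rows called between leaves took none.

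Pairing by replicate number was checked through correlations of deviations from group means. Leaves of controls with the same number correlated at 0.165 to 0.207 on Day 0 and 0.117 to 0.259 on rehydration Day 6. For leaves, a fit with the number as a block is therefore given beside the main fit, which had no block. That pairing rests on the data and not the labels. Libraries with different numbers were not correlated.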

Additional observations from a re-analysis of the deposited data

How the results depend on the processing

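The selection gave 63 rows as reported, 61 with TMM scaling (44 of them shared), 69 and 59 with pseudocounts of 0.5 and 2, 67 and 54 with minimum levels of 1 and 10 CPM, 49 to 92 without 1 of the 2 h libraries, and 9 (8 shared) with the near-empty library kept. With TMM scaling 56 of the 63 kept the 2 h limit, and 13 passed the limit of 0.6 at another stage. In the latest leaf on Day 9, 10 had a response of -0.6 or lower, and the median of the 63 was -0.30 in place of -0.03. In the second latest leaf 2 were that low on Day 9 and 2 on Day 6. In the latest leaf 2 reached 0.6 or higher on rehydration Day 3. Median 2 h responses stayed at -1.11 to -0.90 in the latest leaf and -1.17 to -1.01 in the second latest without 1 library. The class with higher controls fell to 13 rows, against 25, with TMM scaling, an alternative chosen after seeing the data. The cause of these shifts was not tested.

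Counts of called rows among the 63 were small and moved with the settings, and the counts over all rows, given in brackets, moved as well. Between leaves of controls, against 0 (238) on Day 0 and 0 (65) on rehydration Day 6, the replicate block gave 11 (1972) and 9 (906), and a fit of the compared libraries alone 11 (1805) and 9 (413). For treated and control latest leaves on Day 0, against 2 (134), DESeq2 gave 5 (581), no filter 15 (1588), the compared libraries alone 15 (1402), the replicate block 1 (84), and leaving out 1 library 0 to 1 (13 to 77). On rehydration Day 6, against 0 (0), DESeq2 gave 2 (222), no filter 6 (1278) and leaving out 1 library 0 to 2. In the second latest leaf no filter gave 1 (143) on Day 0, against 0 (0). On rehydration Day 6, against 1 (55), DESeq2 gave 3 (469), DESeq2-type size factors in edgeR 2 (70), no filter 7 (785), the compared libraries alone 0 (0) and leaving out 1 library 0 to 3 (0 to 279). For controls of rehydration Day 6 over Day 0, against 1 (863) in the latest leaf, DESeq2 gave 4 (1778), no filter 11 (2828), the replicate block 2 (1126), the compared libraries alone 17 (3598 of 18959 tested) and leaving out 1 library 0 to 1. In the second latest leaf, against 2 (629), DESeq2 gave 4 (1187), no filter 4 (1525), the block 3 (737), the compared libraries alone 13 (3404) and leaving out 1 library 0 to 1 (52 to 270). Without the filter 41795 rows were tested in the latest leaf and 42997 in the second latest. Interaction counts stayed at 0 in every alternative run. Deviations of same-numbered treated and control libraries correlated at -0.140 to 0.277, and those of controls of both days at 0.00868 to 0.252. The upper values are as high as those between leaves of controls, and the lower ones are not. Whether these libraries share more than a number was not tested.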
